A study of Mus musculus with 2 samples.

Results

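Choroid plexus spots were the 80 array spots, 40 in each of 2 coronal mouse brain sections, that scored highest for a choroid plexus signature among the 7260 spots holding at least 500 UMIs (unique molecular identifiers, which count RNA molecules). Mouse 1 contributed 40 of 3712 such spots and mouse 2 contributed 40 of 3548. The score of a spot was the mean, over Ttr, Kl, Folr1 and Clic6, of the natural log of 1 plus the count per 10000 UMIs of that spot. These 4 genes chose the spots, so their values are given as a description and support nothing. RNA was captured on the 10x Visium array, whose barcoded spots are wider than a cell, from 1 section per mouse cut 10 µm thick at 1.9 mm behind bregma. Both mice expressed hM3Dq, a designer receptor that the compound CNO activates, after an injection at 4.6 mm behind bregma, and both had been treated with CNO. The genotype label of mouse 1 was "WT:C57BL/6J control" and that of mouse 2 "WT:CRISPR-Cas9 edited isogenic control". The mice form 1 treated group (n = 2), and an untreated section, the promoter that drove the receptor and the age of the mice were not among the sources used here. The brains were frozen without perfusion, so blood stayed in the vessels, and the sides of the tissue had been trimmed to fit the capture area of 6.5 mm.

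The choroid plexus is a frond of tissue that hangs into the brain ventricles. A single layer of epithelial cells, joined by tight junctions, surrounds a core of stroma and leaky, fenestrated capillaries, and it secretes cerebrospinal fluid by moving ions and water from blood to ventricle. Its cells also make carrier and signalling proteins for that fluid, such as the thyroid hormone carrier transthyretin (Ttr), and form the barrier between blood and cerebrospinal fluid.

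Promoter windows of 4 genes of this epithelium, each running from 250 bases before to 50 bases after an annotated transcript start, are shown because their genes stood among those much higher in these spots and because the windows differ in the motifs they hold. They come from RefSeq on GRCm38.p6, and all are on the plus strand. The Kl window (klotho, a gene of the score) lies at chr5:150952357-150952656, the Aqp1 window (the water channel aquaporin 1) at chr6:55336049-55336348, the Kcne2 window (a potassium channel subunit) at chr16:92292139-92292438 and the Abca4 window (a lipid transporter best known from the retina) at chr3:122044210-122044509. For Abca4 the window belongs to a transcript start inside the gene, whose annotation begins at 122043891, and for the other 3 genes it is set on the start of the gene's annotation. Capitals mark matches to the searched motifs.
Kl: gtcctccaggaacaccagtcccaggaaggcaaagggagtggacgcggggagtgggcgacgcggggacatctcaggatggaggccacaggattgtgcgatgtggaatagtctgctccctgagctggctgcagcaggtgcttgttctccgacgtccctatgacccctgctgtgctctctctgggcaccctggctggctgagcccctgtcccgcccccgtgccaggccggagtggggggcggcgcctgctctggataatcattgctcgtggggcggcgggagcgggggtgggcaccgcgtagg
Aqp1: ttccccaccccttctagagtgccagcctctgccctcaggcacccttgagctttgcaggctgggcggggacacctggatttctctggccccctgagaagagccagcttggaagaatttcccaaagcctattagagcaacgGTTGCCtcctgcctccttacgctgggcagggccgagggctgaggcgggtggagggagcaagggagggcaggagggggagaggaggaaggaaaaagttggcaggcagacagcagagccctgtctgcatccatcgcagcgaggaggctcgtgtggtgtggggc
Kcne2: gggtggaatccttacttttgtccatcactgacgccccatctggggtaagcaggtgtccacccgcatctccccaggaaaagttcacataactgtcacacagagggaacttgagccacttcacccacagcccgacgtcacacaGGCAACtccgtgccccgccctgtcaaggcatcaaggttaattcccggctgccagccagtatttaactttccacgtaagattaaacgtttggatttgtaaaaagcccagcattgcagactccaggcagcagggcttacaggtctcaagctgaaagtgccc
Abca4: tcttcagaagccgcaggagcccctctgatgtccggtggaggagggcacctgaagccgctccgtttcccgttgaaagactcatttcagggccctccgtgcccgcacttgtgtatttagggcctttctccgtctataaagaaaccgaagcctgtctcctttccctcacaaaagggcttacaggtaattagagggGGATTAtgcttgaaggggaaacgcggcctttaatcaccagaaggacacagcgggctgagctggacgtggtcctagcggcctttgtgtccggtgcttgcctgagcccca
The motifs were GTTGCC, part of the site of RFX factors, TAATCC, the site of Otx2-type homeodomain factors, and GTAAACA, a forkhead site, each sought on both strands. GTTGCC stood 111 bases before the start of Aqp1, its reverse complement GGCAAC 109 bases before that of Kcne2, and GGATTA, the reverse complement of TAATCC, 58 bases before that transcript start of Abca4, while the Kl window held none of these letters. Of the 107 genes of the epithelial lists described below, 84 had windows. Their 114 windows held GTTGCC in 17.5% of cases against 12.5% of all 32851 windows, TAATCC in 5.26% against 7.06%, and GTAAACA in 1.75% against 3.65%. These are descriptions of letters and not of bound sites.

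The sections held 30671753 UMIs over 3715 spots under tissue in mouse 1 and 55315952 over 3549 in mouse 2. Summed over the 40 members, choroid plexus spots gave 589018 and 870786 UMIs. Members were deeper than the remaining spots: their median was 12815.5 UMIs in mouse 1 and 19530 in mouse 2, against 7509.5 and 14609.5 in all other spots. Mitochondrial genes took 11.31% and 11.05% of member UMIs and 13.37% and 15.45% elsewhere. Ttr alone took 14.74% and 12.355% of member UMIs, which lowers the share of every other gene in the members. The array barcodes name positions on the slide, so 3369 occurred in both sections and 16 positions were members in both, which does not mean shared cells. All comparisons below use UMIs summed per mouse and spot set, since spots of 1 section are not replicates. In such sums fewer cells of a type and less RNA per cell cannot be told apart, and every spot mixes cells.

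Members fell into 5 compact patches. In mouse 1, 20 members lay at the midline of the section, 11 at the left and 9 at the right image edge. In mouse 2, 32 lay at the midline, 8 at the left edge and 0 at the right edge. The midline patches reached no farther than 3.32 spot pitches from the line that best mirrors the section, and the edge patches lay at least 25.3 pitches away. Image sides are not tied to the injected side in the sources used here. Of the 10 top-scoring members, 5 in mouse 1 and 9 in mouse 2 were at the midline.

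**Figure D1:**
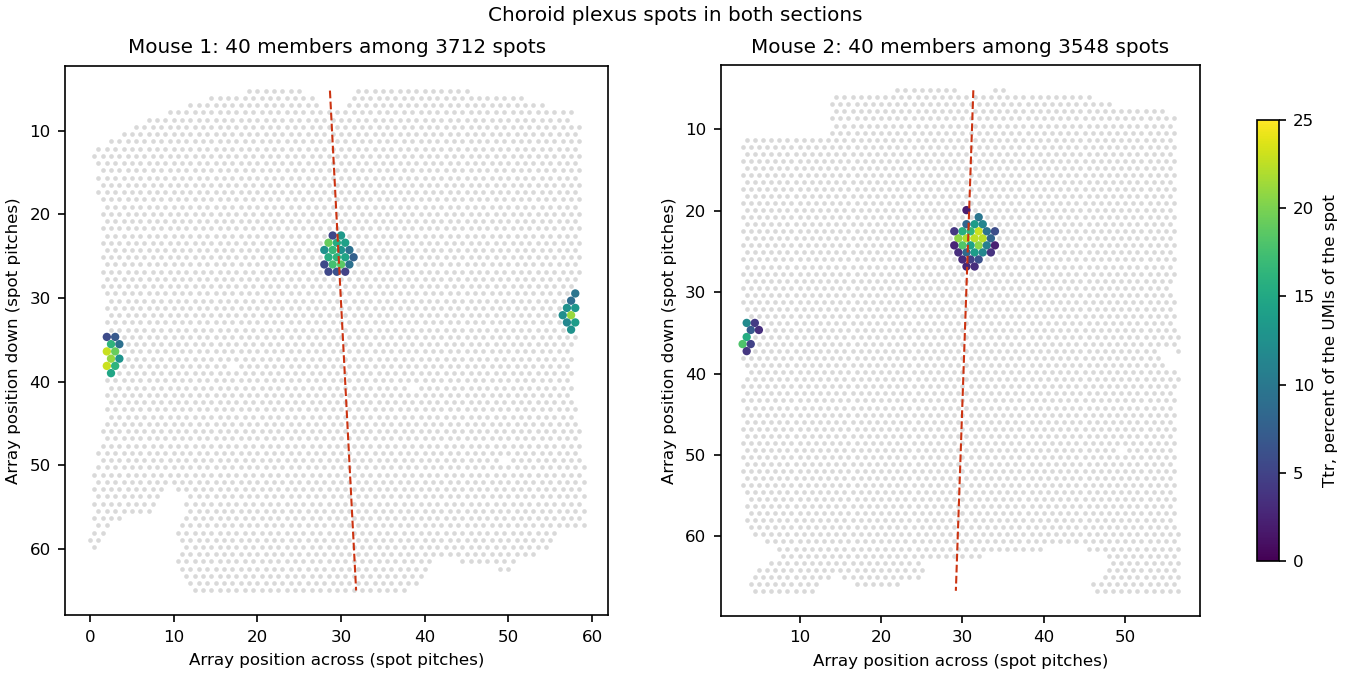
Array positions of all spots with at least 500 UMIs (grey) and of the 40 choroid plexus spots per section, coloured by the percent of their UMIs that were Ttr. Axes are in spot pitches, the dashed line is the estimated midline, and members form 3 patches in mouse 1 and 2 patches in mouse 2.

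Ttr dominated the members. It gave 86824 of their UMIs in mouse 1 and 107587 in mouse 2, which is 14.74% and 12.355% of all RNA counted there, against 0.076% and 0.057% in all other spots. Single members ranged from 381 to 6730 Ttr UMIs (median 1646) in mouse 1 and from 285 to 8529 (median 1549) in mouse 2. As a share of the spot this was 4.792% to 23.034% and 1.871% to 22.976%, so the members of mouse 2 reached lower shares. Both sections put most of their Ttr into the members, 79.16% and 77.75%.

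Kl (ENSMUSG00000058488; mm10 chromosome 5, 150952607 to 150993817) encodes klotho, a co-receptor for fibroblast growth factors. It stood at 784.4 and 709.7 (counts per 1000000 UMIs of the sum, CPM) in the members of mouse 1 and mouse 2, against 5.452 and 6.52 in other spots. Folr1 (ENSMUSG00000001827; chromosome 7, 101858331 to 101870788), the folate receptor that carries folate into the fluid, stood at 573.8 and 392.7 CPM against 4.089 and 3.453. Clic6 (ENSMUSG00000022949; chromosome 16, 92498147 to 92541241), a chloride channel family member, stood at 611.2 and 523.7 CPM against 5.086 and 4.243. In every case the members of both mice lay far above the other spots. All 4 genes were detected in 39 and 38 of the 40 members.

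The limit of 40 spots cut a continuous range. The member of rank 40 scored 2.506 in mouse 1 and 2.042 in mouse 2, and the next spots outside scored 2.458 and 2.037. In mouse 1 the rank 40 spot held 494 Ttr UMIs of 9270 and the rank 41 spot 474 of 9139. Ttr fell with distance but did not vanish: within 1 spot pitch of a member it stood at 26870 CPM in mouse 1 and 17200 in mouse 2, at 2 pitches 6405 and 5423, and beyond 10 pitches 138.7 and 108.8.

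**Figure D2:**
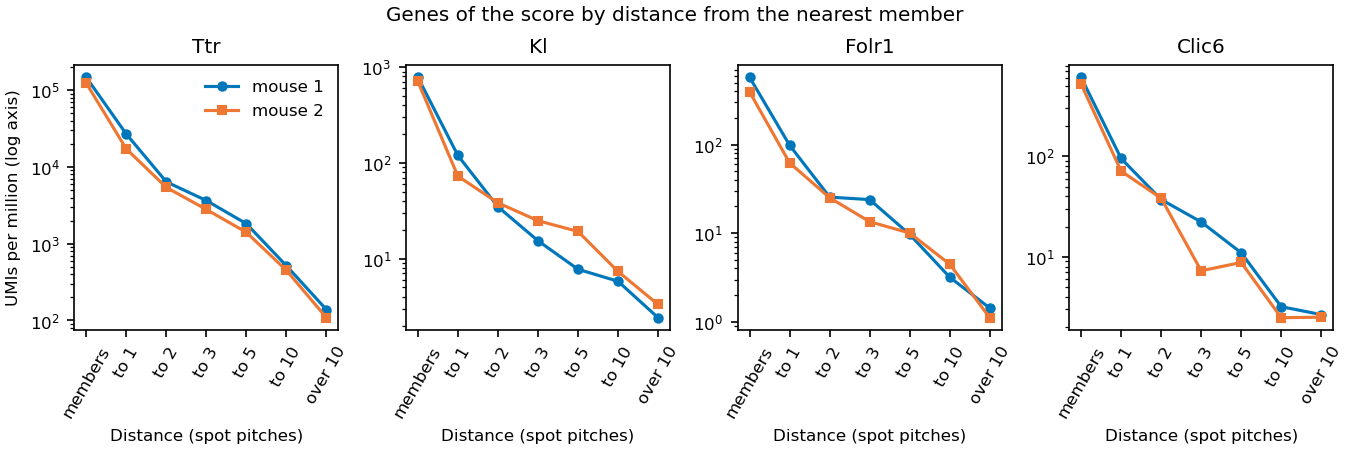
CPM (log axis) of the 4 genes of the score in the members and in spots grouped by distance from the nearest member, in spot pitches, for mouse 1 and mouse 2. All 4 genes are highest in the members, and Ttr falls from 147400 and 123600 CPM to 138.7 and 108.8 CPM beyond 10 pitches.

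The label was checked against 15 further choroid plexus markers that the score did not use. In both sections 14 of them were at least 2-fold higher in the members than in other spots, with log2 differences from 4.72 to 8.13 among the 15, and the remaining gene, Lmx1a, had under 50 UMIs in every sum. The label holds by these markers, within spots that also carry other tissue. They mark the same epithelium as the score genes and were chosen with earlier results of these data known, so they are not independent support. Epithelial genes were then described in 6 lists, with no test, because they mark the cells that the score sought. Of their 103 genes outside the score, 88 had at least 50 UMIs in some sum: 62 were at least 2-fold higher in both sections, 24 were neither higher nor lower by that measure (median log2 difference 2.72 over the 88), and Tbx3 and Vil1 were at 0 UMIs in the members. A count of 0 allows up to 5.093 and 3.445 CPM here, more than both genes showed in other spots, so their lower level was not detectable. Of all 14344 genes with that many UMIs, 8.93% were at least 2-fold higher in both sections and 9.18% lower.

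The list counts that follow include the genes of the score. Ion and water transport, the machinery of fluid secretion, had 15 of 19 measured genes at least 2-fold higher. Kcnj13, an inward rectifier potassium channel, stood at 390.5 and 250.3 CPM in the members and 1.762 and 1.139 in other spots (log2 difference 7.84). Kcne2, which assembles with potassium channels, stood at 322.6 and 312.4 CPM against 2.028 and 1.084 (log2 7.81). Slc4a5, a sodium bicarbonate cotransporter, and the water channel Aqp1 differed by 7.53 and 7.47 on the log2 scale. Slc12a2, the sodium, potassium and chloride cotransporter NKCC1, was expressed more widely, with 261.5 and 246.9 CPM in the members and 73.1 and 70.62 elsewhere (log2 1.88). Atp1b1, a subunit of the sodium pump shared with neurons, was among the 4 genes without a 2-fold difference, at 784.4 and 1209 CPM against 1273 and 1375.

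Solute transporters gave 15 of 19 genes at least 2-fold higher. Steap1, a metalloreductase, stood at 122.2 and 86.13 CPM against 0.698 and 0.404 (log2 7.64), Abca4 at 91.68 and 82.68 against 1.33 and 1.12 (log2 6.21) and the sulfate transporter Slc13a4 at 178.3 and 170 against 3.623 and 3.031 (log2 5.78). Secreted proteins gave 16 of 20. F5, coagulation factor V, stood at 118.8 and 112.5 CPM against 0.831 and 0.459 (log2 7.62). Wfdc2, a protease inhibitor family member, differed between the mice, at 195.2 CPM in mouse 1 and 62.01 in mouse 2, against 1.296 and 0.367. Ecrg4, a secreted peptide precursor, and Sostdc1, an antagonist of BMP and Wnt signals, differed by 6.92 and 6.67. Enpp2, the lipid-signalling enzyme autotaxin, was a marker outside the naming rule and stood at 14360 and 12370 CPM against 338.4 and 295.8 (log2 5.46). The growth factor Igf2, also named after its values were seen, stood at 551.8 and 459.4 CPM against 12.27 and 16.68.

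Receptors were more evenly spread, with 6 of 12 measured genes at least 2-fold higher and 6 not. The prolactin receptor Prlr stood at 341.2 and 272.2 CPM against 6.582 and 6.869 (log2 5.55). The serotonin receptor Htr2c, which neurons also use, stood at 215.6 and 294 CPM against 34.27 and 45.86 (log2 2.73). Among factors that set tissue identity, 5 of 9 measured genes were at least 2-fold higher: Msx1 by 5.82, Otx2 by 5.21 and the cilia factor Foxj1 by 3.25 on the log2 scale. Otx2, a homeodomain factor needed to form the choroid plexus, stood at 236 and 170 CPM against 5.552 and 5.639. Epithelial and junction genes gave 9 of 13, led by Tmem72 (log2 8.13), the tight junction protein of leaky epithelia Cldn2 (7.75), the keratin Krt18 (6.68) and Calml4 (6.28). Cldn2 stood at 135.8 and 89.57 CPM in the members and 0.698 and 0.404 elsewhere.

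**Figure D3:**
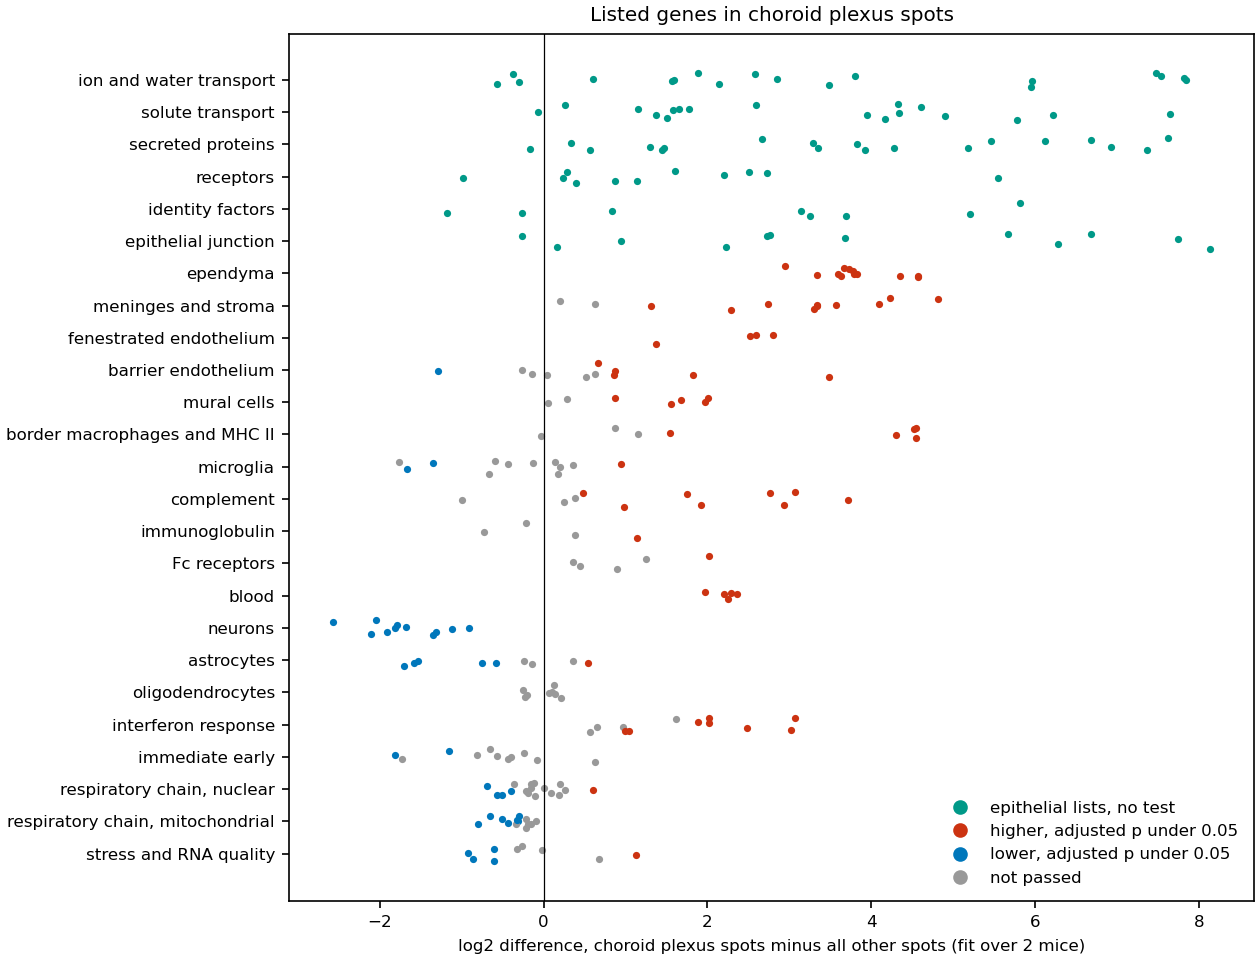
Log2 difference of each listed gene between choroid plexus spots and all other spots, fitted over both mice, by list (rows). Green points belong to the epithelial lists and carry no test, red and blue points passed an adjusted p of 0.05, and grey points did not; genes with under 50 UMIs in every sum, genes at 0 in the members and the genes of the score are left out. The ependymal points all lie to the right of 0 and the neuronal points all to the left.

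Genes outside all lists were ranked by fold among those with at least 50 UMIs in both member sums, as a description. The highest was 2900040C04Rik, at 612.9 and 297.4 CPM in the members and 4.056 and 2.204 in other spots. Wdr86 and Smim22 followed, with log2 differences of 7.10 and 6.64. Lbp, the binding protein for bacterial lipopolysaccharide, stood at 215.6 and 179.1 CPM against 4.056 and 3.031. Cox8b, a cytochrome oxidase subunit best known from muscle and brown fat, stood at 319.2 and 172.3 against 5.02 and 3.526. Ace, the angiotensin-converting enzyme, stood at 436.3 and 284.8 against 8.277 and 6.3. The list was completed by Gpx8, Col9a3, Pcolce and Sulf1, between 5.05 and 4.80 on the log2 scale.

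Other cells and functions were tested between the members and all other spots with edgeR's quasi-likelihood test, with mouse as a block and Benjamini-Hochberg adjustment over 15269 genes. The score used none of these genes, but they sit in the spots it picked, so the tests say only that the picked tissue differs. Across all genes 2138 were higher in the members (14.0%) and 2609 lower (17.1%), and the median log2 difference was -0.14. DESeq2 called 1556 and 1130. Each fit, apart from that with adjacent spots below, had 4 sums and 1 residual degree of freedom. The p-values lean on a spread shared by all genes.

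Ependymal genes, markers of the ciliated lining of the ventricle, rose together. All 12 tested were higher in the members, with a median log2 difference of 3.75. Mia stood at 168.1 and 158.5 CPM in the members and 8.144 and 6.355 in other spots (log2 4.57, SE 0.20, edgeR adjusted p = 8.0e-115). Dynlrb2, a dynein light chain, stood at 152.8 and 122.9 CPM against 7.845 and 4.647 (log2 4.57). The epithelium of the plexus has cilia of its own, and 7 of the 40 top ependymal spots in mouse 1 and 11 in mouse 2 were themselves members. The part of ventricle wall in the result was not tested.

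Genes of meninges and stroma were higher for 12 of 14 members of the list (median 3.34). Lum, the collagen-binding proteoglycan lumican, stood at 81.49 and 75.79 CPM against 2.826 and 2.957 (log2 4.81, SE 0.28, edgeR adjusted p = 1.8e-62). Ogn, a related proteoglycan, stood at 76.4 and 50.53 against 3.69 and 3.233. Of the top meningeal spots, 9 in mouse 1 and 12 in mouse 2 were themselves choroid plexus spots. The parts of meninges and of plexus stroma in the result were not tested. All 5 tested genes on the list of fenestrated endothelium were higher, and the part of other vessels in this was not tested. Emcn, endomucin, stood at 50.93 and 37.9 CPM against 6.416 and 6.612 (log2 2.80), and Kdr, a receptor for VEGF, at 27.16 and 33.3 against 5.751 and 5.437 (log2 2.51). Plvap, which forms the diaphragms of the fenestrae, stood at 23.77 and 25.26 CPM against 9.541 and 10.08 (log2 1.38, SE 0.34, edgeR adjusted p = 0.00036).

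Endothelium of the blood-brain barrier gave 5 higher and 1 lower of 11 tested genes. The highest was Slco1c1, a thyroid hormone transporter that choroid plexus epithelium also makes, at 314.1 and 299.7 CPM against 28.69 and 28.73 (log2 3.48), followed by Bsg (log2 1.82). Mfsd2a, a lipid transporter of barrier endothelium, was lower, with 3 and 5 UMIs in the members (log2 -1.28, SE 0.51, edgeR adjusted p = 0.040), but its adjusted p was 0.32 in DESeq2 and 0.20 in edgeR with 20 spots per section. DESeq2 called 2 genes of this list higher and 0 lower. Mural cell genes were higher for 5 of 7, such as the smooth muscle actin Acta2 at 23.77 and 51.68 CPM against 10.01 and 10.14 (log2 2.01).

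Antigen presentation genes of MHC class II stood out among the immune lists. Cd74, the invariant chain, had 61 and 110 UMIs in the members, which is 103.6 and 126.3 CPM, against 4.255 and 5.933 CPM in other spots (log2 4.55, SE 0.23, edgeR adjusted p = 2.8e-86). H2-Aa, H2-Ab1 and H2-Eb1, which encode the class II chains, were higher by 4.54, 4.52 and 4.30. These 4 and the scavenger receptor Stab1 were the 5 higher genes of the 11 tested on the list of border macrophages, the macrophages that live in plexus and meninges. The 9 macrophage markers on the list had between 0 and 10 UMIs per member sum. Stab1 had the most, with 6 and 10 UMIs (10.19 and 11.48 CPM against 3.823 and 3.931 in other spots), then Pf4 with 5 and 4 (8.489 and 4.594 CPM against 3.856 and 3.306). Ms4a7 had 4 and 1, Clec12a 3 and 0, Cbr2 2 and 1, Mrc1 1 and 2, Cd163 1 and 1, Lyve1 0 and 2, and F13a1 0 and 0. The whole list, in which the 4 MHC class II genes were the larger part, summed to 285.2 and 361.7 CPM in the members and 24.5 and 29.57 elsewhere.

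Of 12 microglial genes, 9 did not pass. P2ry12, a purine receptor of resting microglia, was lower, with 3.395 and 10.34 CPM against 23.83 and 25.05 (log2 -1.67, SE 0.41, edgeR adjusted p = 0.00035), but not with 80 spots per section (edgeR adjusted p = 0.087). Gpr34 was also lower, and Olfml3 was higher by 0.94.

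Complement, the cascade named in the title of the study, gave 11 higher genes of 14 tested, with a median of 2.34, and 7 in DESeq2. The largest differences were in regulators and in the proteases C1s1 and C1ra. Serping1, the C1 inhibitor, stood at 56.03 and 58.57 CPM against 4.82 and 4.335 (log2 3.72, SE 0.29, edgeR adjusted p = 1.6e-34). Cd55, which restrains the C3 convertases, was higher by 3.06. C1s1 and C1ra, which act with C1q, were higher by 3.48 (SE 0.92) and 3.06 (SE 0.83), with 3 to 6 UMIs per member sum.

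C1qa, C1qb and C1qc encode the chains of C1q, which starts the classical pathway. C1qa had 55 and 94 UMIs in the members, at 93.38 and 107.9 CPM against 83.01 and 69.59 in other spots (log2 0.48, SE 0.18, edgeR adjusted p = 0.029). This call was lost with scaling to totals (edgeR adjusted p = 0.075), without the block (0.076), in DESeq2 (0.17) and with 20 spots per section (0.14). C1qb stood at 78.1 and 113.7 CPM against 83.7 and 72.5 and did not pass (log2 0.39, SE 0.18, edgeR adjusted p = 0.099). C1qc stood at 69.61 and 75.79 against 67.58 and 61.2 and did not pass either (log2 0.25, edgeR adjusted p = 0.37). The fitted differences of these 3 genes lay between 0.25 and 0.48. C4b, the component that C1s cleaves, stood at 47.54 and 31.01 CPM against 25.23 and 16.37 (log2 0.98, SE 0.27, edgeR adjusted p = 0.0013), but at 0.21 (edgeR adjusted p = 0.76) with 20 spots per section.

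Immunoglobulin transcripts were few in the members. Igkc, the kappa light chain, had 20 and 19 UMIs, at 33.95 and 21.82 CPM against 34.34 and 13.35 elsewhere (log2 0.38, edgeR adjusted p = 0.34). Ighm, the IgM heavy chain, stood at 6.791 and 20.67 CPM against 27.96 and 23.79 (log2 -0.72, edgeR adjusted p = 0.088), and Jchain had 1 and 2 UMIs. Igha, the IgA heavy chain, was the only one of 6 tested genes that passed, with 4 and 17 UMIs (log2 1.14, SE 0.44, edgeR adjusted p = 0.033). That call rested on mouse 2: in mouse 1 the log2 difference was -0.05, and the adjusted p was 0.32 in DESeq2. Among Fc receptor genes, 1 of 5 passed: Fcgrt, the neonatal receptor that carries IgG across cells, at 32.26 and 40.19 CPM against 9.175 and 9.606 (log2 2.02, SE 0.30, edgeR adjusted p = 4.6e-10).

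Haemoglobin and red cell genes were higher for 5 of 5. Hbb-bs, a beta chain, stood at 2041 and 14460 CPM in the members and 1019 and 1523 in other spots (log2 2.20, SE 0.14, edgeR adjusted p = 2.8e-50). The difference between the mice was wide, and DESeq2 passed only 1 of the 5 (Hbb-bs adjusted p = 0.079). Blood genes were higher in the members, as were many of the immune and vessel genes above. The part of blood in those differences was not tested.

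Neuronal genes were lower for 11 of 11, with a median of -1.79. Snap25, of the vesicle release machinery, stood at 319.2 and 652.3 CPM in the members against 1756 and 1886 (log2 -1.91, SE 0.15, edgeR adjusted p = 8.7e-36), and the glutamate transporter Slc17a6 at 18.68 and 47.08 against 188.1 and 226.9. Astrocyte genes gave 5 lower and 1 higher of 9. Aldoc, an enzyme of glycolysis, fell by 1.71 on the log2 scale. Gfap, the astrocyte filament, was higher by 0.54 (edgeR adjusted p = 0.0089), but stood at -0.10 (edgeR adjusted p = 0.79) with 20 spots per section. None of 8 oligodendrocyte genes passed in edgeR, at an unadjusted p under 0.05 or in DESeq2, and Mbp, a myelin protein, stood at 3837 and 4010 CPM against 4863 and 4877. The fitted median log2 difference of that list was 0.08, as the fit rescales the sums and CPM do not.

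Interferon response genes were higher for 8 of 12 and lower for 0 (median 1.76). Bst2 stood at 129 and 83.83 CPM against 14.79 and 11.35 (log2 3.07), Ifi27 at 601 and 497.3 against 72.14 and 68.18 (log2 3.02) and Ifitm3, which restricts virus entry, at 151.1 and 132.1 against 29.19 and 23.71 (log2 2.49). Immediate early genes of neuronal activity gave 2 lower of 11: Fos, with 1 and 4 UMIs in the members (log2 -1.81, edgeR adjusted p = 0.0096), and Egr1 (log2 -1.16). Respiratory chain genes gave 1 higher and 4 lower of 17 in the nuclear list and 7 lower of 13 in the mitochondrial list, where DESeq2 called 1. Ndufa1 was the nuclear gene that rose, by 0.60, and mt-Co1 stood at 23050 and 20730 CPM against 32000 and 32670 (log2 -0.50). Of 9 stress and RNA quality genes, Neat1 was higher by 1.13 and 4 were lower, among them Gm42418, an overlapping ribosomal RNA locus, by -0.92. The calls of Fos and mt-Co1 were lost in DESeq2 (adjusted p = 0.16 and 0.067), and those of Egr1, Ndufa1, mt-Co1 and Gm42418 in edgeR without the block (adjusted p from 0.061 to 0.34).

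Position within the choroid plexus was not used by the score. Members near the midline (20 and 32 spots, 241361 and 699559 UMIs) were compared with members farther out (20 and 8 spots, 347657 and 171227 UMIs). Of 4301 genes tested with edgeR, 213 were higher near the midline (4.95%) and 198 lower (4.60%), which is 9.56% in either direction, with a median log2 difference of 0.04. DESeq2 called 38 and 61, and scaling to totals, which moved the median to 0.17, gave 321 and 203.

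Of 65 epithelial genes tested outside the score, 2 were higher near the midline, 4 lower and 59 did not pass, a share of calls close to the 9.56% over all genes, with a median of -0.18. DESeq2 called 1 higher and 2 lower of 62. A difference that misses the threshold does not show equal levels. The score genes were not tested, and Ttr stood at 132700 and 126400 CPM near the midline and 157600 and 111700 farther out. Zic1, a patterning factor, was higher near the midline, at 120.2 and 161.5 CPM against 34.52 and 52.56 (log2 1.57, SE 0.36, edgeR adjusted p = 0.017). Over all members Zic1 stood at 69.61 and 140.1 CPM, against 117.9 and 142.8 in all other spots. Atp1b1 was higher by 1.49, at 1239 and 1411 CPM against 468.9 and 385.5. The lower genes were Trf, the iron carrier transferrin, by -2.05, the carbonic anhydrase Car2 by -1.12, Wfdc2 by -1.14 and Igfbp2, which binds insulin-like growth factors, by -0.84. Igfbp2 stood at 778.9 and 583.2 CPM near the midline and 1294 and 934.4 farther out. The calls of Atp1b1 and Trf held under every alternative run, whereas those of Zic1, Wfdc2 and Igfbp2 were lost in DESeq2 (adjusted p = 0.32, 0.43 and 0.076) and that of Car2 with 20 spots per section (edgeR adjusted p = 0.39). Oligodendrocytes also make Trf and Car2, and neurons Atp1b1, and those lists moved with position as follows. Values of all these called genes in the spots around the members are given below.

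Myelin and neuronal genes separated the positions most. All 8 oligodendrocyte genes were lower near the midline (median -2.72), such as Mbp at 1197 and 1632 CPM against 5669 and 13720 (log2 -2.80, SE 0.25, edgeR adjusted p = 0.00037). Of 11 neuronal genes 10 were higher near the midline (median 2.68), such as Snap25 at 704.3 and 786.2 CPM against 51.78 and 105.1 (log2 3.20, SE 0.31, edgeR adjusted p = 0.00037). Of the 10 largest rises near the midline, 7 had 0 UMIs in all members farther out. Tac2, the neurokinin B precursor, had 22 and 112 UMIs near the midline and was at least 10.6-fold and 9.14-fold higher there in mouse 1 and mouse 2, against a floor of 3 UMIs per sum. Spink8 was at least 9.60-fold and 3.84-fold higher. The other 5 at 0 were Icam5, Gm5741, Scn3b, Nwd2 and Synpr. Cacnb3 and Actr3b, with 1 and 0 UMIs farther out, were also among the 10. The 10 largest falls included Sec14l5, Gjb1, Efhd1, Prr18, Litaf, Sox10, Mobp, Bcas1 and Myrf, between -3.69 and -3.02 on the log2 scale. Sox10 and Myrf are transcription factors of oligodendrocytes, and Mobp and Gjb1 encode a myelin and a gap junction protein.

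Immune genes also differed by position. C1qa stood at 49.72 and 72.9 CPM near the midline and 123.7 and 251.1 farther out (log2 -1.71, SE 0.32, edgeR adjusted p = 0.0070). C1qb stood at 37.29 and 87.2 against 106.4 and 221.9 (log2 -1.50, SE 0.33, edgeR adjusted p = 0.014), and C1qc at 53.86 and 31.45 against 80.54 and 257 (log2 -2.17, SE 0.48, edgeR adjusted p = 0.014). For each of the 3 genes both values near the midline lay below both values farther out, a pattern whose share over all genes was not computed. These were the 3 lower genes of 7 tested complement genes, and 3 of 4 tested microglial genes were lower as well, among them Tyrobp by -1.78 and Csf1r by -1.66. DESeq2 passed none of these (adjusted p = 0.10, 0.19 and 0.12 for C1qa, C1qb and C1qc), and with 20 spots per section C1qa and C1qb were at edgeR adjusted p = 0.059 and 0.19. Gfap was lower near the midline by -2.04. Cd74 did not pass (edgeR adjusted p = 0.16) and had 20.72 CPM at the midline of mouse 1 but 122.9 in mouse 2, against 161.1 and 140.2 farther out.

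Blood genes were higher near the midline for 4 of 4. Hbb-bs stood at 2776 and 16530 CPM near and 1530 and 5998 farther out (log2 1.04, SE 0.24, edgeR adjusted p = 0.019), but at an adjusted p of 0.32 without the block. Its counts were concentrated in few spots. In mouse 2, the midline members of ranks 15, 14, 28 and 8 held 3006, 2698, 1423 and 1151 of the 11563 Hbb-bs UMIs there. In mouse 1, those of ranks 40 and 7 held 235 and 203 of 670. The part of such spots in the position difference was not tested. Among the 9 ependymal genes tested, edgeR passed 0, with 2 at an unadjusted p under 0.05, and DESeq2 passed 0. In mouse 1 alone, Hbb-bs stood at 403.2 CPM in the left patch and 2944 in the right, where the member of rank 22 held 411 of 454 UMIs.

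**Figure D4:**
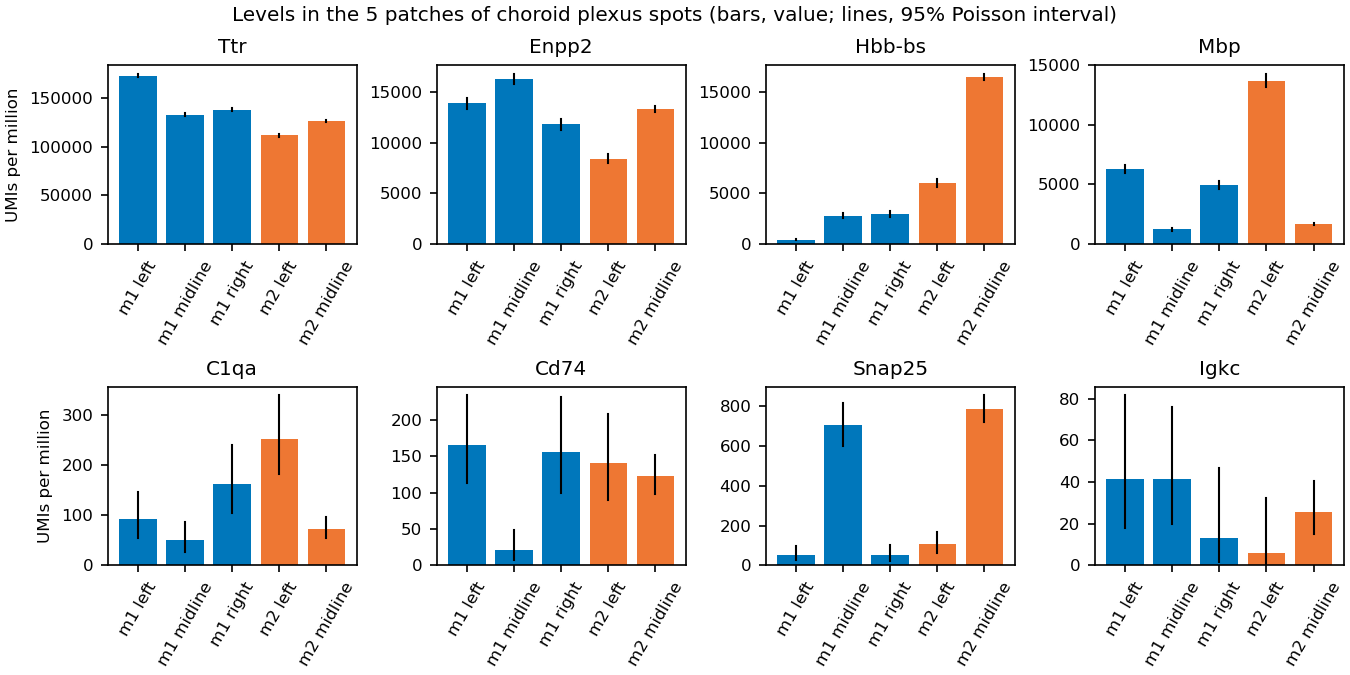
CPM of 8 genes in the 5 patches of choroid plexus spots (bars; lines are exact 95% Poisson intervals, which cover counting error only), blue for mouse 1 (m1) and orange for mouse 2 (m2). Hbb-bs is highest at the midline of mouse 2 (16530 CPM), Mbp is low in both midline patches (1197 and 1632 CPM), and Cd74 is low at the midline of mouse 1 (20.72 CPM).

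The same position difference was then measured in the 171 spots within 2 pitches of a member that were not members themselves, a comparison added after the data had been seen. Of 5802 genes, 506 were higher in adjacent spots near the midline and 753 lower, which is 21.7% in either direction. C1qa fell by 1.55 on the log2 scale there, C1qb by 1.56 and C1qc by 1.72, and Mbp fell by 2.73. The position difference of the members minus that of the adjacent spots was -0.03 for C1qa (SE 0.43, edgeR adjusted p = 0.99), 0.27 for C1qb (SE 0.46), -0.38 for C1qc (SE 0.54) and -0.08 for Mbp (SE 0.29). For C1qa the difference was -1.71 in the members and -1.55 in the tissue around them, and for Mbp -2.80 and -2.73. The epithelial genes called by position in the members moved the same way in the adjacent spots. There Zic1 stood at 2.16, Atp1b1 at 1.29, Trf at -2.28, Car2 at -1.79, Igfbp2 at -0.75 and Wfdc2, which did not pass, at -0.48. For none of them did members and adjacent spots differ at the threshold (edgeR adjusted p from 0.57 to 0.98). Across all genes the 2 position differences differed for 22 (0.379%).

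Among the listed genes that differed in this respect, Enpp2 and Slc12a2 belonged to the epithelial lists. Enpp2 did not pass in the members (log2 0.37), but fell by 0.75 in the adjacent spots near the midline, so that the members exceeded them by 1.15 (SE 0.21, edgeR adjusted p = 0.016). For Slc12a2 the values were -0.32 in the members and -2.08 in the adjacent spots, a difference of 1.79 (SE 0.35, edgeR adjusted p = 0.031). Neither gene passed in the members, and both fell in the adjacent spots, where Mbp fell as well. These values therefore do not show that the plexus epithelium differs by position, and the part of myelin in the falls was not tested. Snap25 rose more in the members than around them, by 2.18 (SE 0.33, edgeR adjusted p = 0.0086). Of 10 ependymal genes with this test, 2 passed, Rarres2 and Cfap126, both with a negative difference. Rarres2 rose by 1.85 in adjacent spots near the midline, and the members lay below that by -2.16 (SE 0.43, edgeR adjusted p = 0.031).

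**Figure D5:**
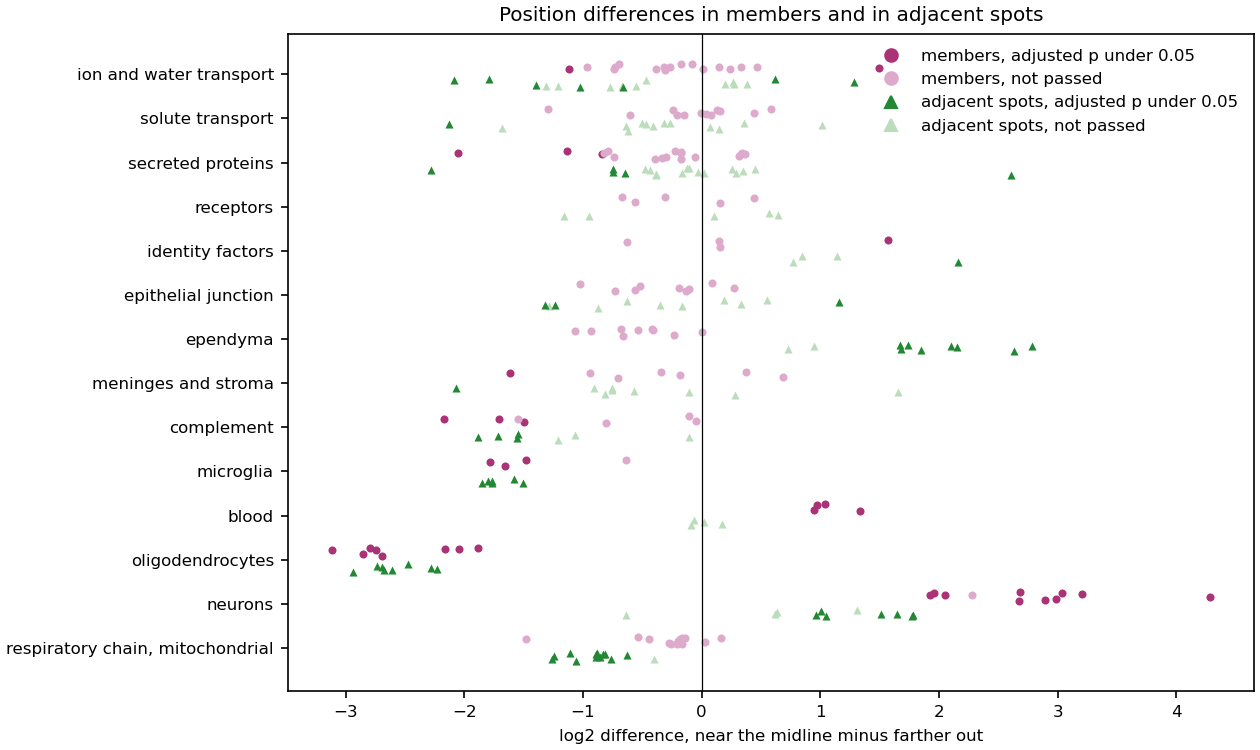
Log2 difference between spots near the midline and spots farther out, per gene and list (rows), in choroid plexus spots (circles) and in adjacent spots (triangles); dark symbols passed an adjusted p of 0.05. Oligodendrocyte and C1q genes lie left of 0 in both kinds of spot, and the blood gene Hbb-bt lies at 1.33 in the members and -0.07 in the adjacent spots.

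Against the wall of the ventricle, the members were compared with ependymal spots (33 and 29 spots picked by Ccdc153, Tmem212, Dynlrb2 and Rarres2, members left out). Of 8134 genes tested with edgeR, 796 were higher in choroid plexus spots (9.79%) and 663 lower (8.15%), which is 17.9% in either direction. With scaling to library totals the counts were 420 and 1637, because the median log2 difference moved from 0.02 to -0.35, and DESeq2 called 178 and 94. Of the epithelial genes outside the score with at least 50 UMIs, 42 of 58 were at least 2-fold higher in both sections. The share of all genes by that measure was not computed against ependymal spots, so the count is a description only. Ependymal genes carry no test here, because the ependymal spots were picked by genes of the same cells. Meig1, for example, stood at 67.91 and 56.27 CPM against 288.8 and 213.9. Genes of stroma were higher for 7 of 10, such as Lum (log2 3.18, SE 0.41), and those of fenestrated endothelium for 4 of 4, of which DESeq2 tested 2 and called 1. All 4 tested genes of the border macrophage list were higher, and they were the MHC class II genes: Cd74 stood at 103.6 and 126.3 CPM against 28.17 and 14.88 (log2 2.92, SE 0.35, edgeR adjusted p = 8.2e-15). C1qa did not pass (log2 0.69, edgeR adjusted p = 0.055). Slco1c1 was higher by 3.53.

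Against the other barrier tissue in the section, meningeal spots (31 and 28 spots picked by Dcn, Col1a1, Col1a2 and Mgp, members left out), 517 of 7171 genes were higher in choroid plexus spots (7.21%) and 300 lower (4.18%), which is 11.4% in either direction. With scaling to totals the counts were 310 and 415, as the median moved from 0.03 to -0.16, and DESeq2 called 105 and 45. Ependymal genes were higher for 11 of 12 (DESeq2 called 2 of 7), such as Mia at 168.1 and 158.5 CPM against 33.67 and 27.7 (log2 2.60, SE 0.30, edgeR adjusted p = 4.3e-06). Mural genes were lower for 4 of 6, such as Acta2 at 23.77 and 51.68 CPM against 228.9 and 233.1 (log2 -2.40). Igkc was lower, at 33.95 and 21.82 CPM against 154.9 and 152.3 (log2 -2.31, SE 0.30, edgeR adjusted p = 2.2e-05), and so was the macrophage marker Mrc1, with 1 and 2 UMIs against 7 and 25. Cd74 did not pass and went opposite ways in the mice, at 103.6 and 126.3 CPM against 50.5 and 219.3. Ifi27 and Slco1c1 were higher by 1.94 and 2.94, and astrocyte genes were lower for 7 of 9, with Gfap at -1.49. Hbb-bs was lower by -1.11, but without the block its adjusted p was 0.56.

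The mice were set side by side with no test, because each gave 1 section. Among genes with at least 200 UMIs in the members, 4 haemoglobin genes had the highest ratios of mouse 2 to mouse 1. Hba-a1, an alpha chain of haemoglobin, stood at 390.5 CPM in mouse 1 and 5875 in mouse 2, a ratio of mouse 2 to mouse 1 of 15.1 (exact 95% interval 13.2 to 17.2, counting error only). The ratio was 13.8 for Hba-a2, 10.5 for Hbb-bt and 7.08 for Hbb-bs, against 1.49 to 3.02 for these genes in all other spots. Haemoglobin took 0.298% of member UMIs in mouse 1 and 2.72% in mouse 2, and 0.154% and 0.288% elsewhere. Bc1, a small RNA of dendrites, was the fifth, at 4.55, and stood at 3.81 in other spots as well. The lowest ratios included those of Gm10076 (0.137), Bloc1s1 (0.350), Eno1 (0.412) and Rpl35 (0.476), and in all other spots these genes had ratios of 0.150, 0.416, 0.450 and 0.435.

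Choroid genes were closer between the mice than the haemoglobin genes. The ratio was 0.838 (0.831 to 0.846) for Ttr, 0.861 (0.837 to 0.886) for Enpp2, 0.905 (0.801 to 1.02) for Kl and 0.968 (0.802 to 1.17) for Kcne2. Ttr and Kl are genes of the score. Others lay farther from 1: the score gene Folr1 at 0.684 (0.587 to 0.798), Kcnj13 at 0.641 (0.530 to 0.775) and Igfbp2 at 0.602 (0.537 to 0.675). Htr2c went the other way, at 1.36 (1.10 to 1.70). Wfdc2 was farther apart, at 0.318 (0.226 to 0.443), and stood at 0.283 in other spots. Calml4, a light chain of the brush border, stood at 0.513, and Ptgds, prostaglandin D synthase, at 1.80 (1.69 to 1.91). The members of the 2 mice also differed in position, with 20 and 8 spots away from the midline, so values are also given at the midline alone. There Hbb-bs stood at 2776 CPM in mouse 1 and 16530 in mouse 2, so the sums were far apart at the same position too. In mouse 2, however, the midline members of ranks 15 and 14 alone held 3006 and 2698 of the 11563 Hbb-bs UMIs. Poisson intervals do not cover such unevenness between spots. Wfdc2 stood at 124.3 and 51.46 CPM at the midline, Ptgds at 3364 and 4762, and Ttr at 132700 and 126400.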

How the data were processed

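RNA was measured in 1 Visium section from each of 2 mice. The deposited tables hold raw counts of UMIs for each gene in each spot. Per the file headers, Space Ranger 1.3.1 wrote them, and the submitters' processing notes name mm10 as build. How reads were aligned and which annotation served is not given in the sources used here. Of the 32285 genes, 78 rows with a shared symbol were not matched by symbol. Gene positions came from RefSeq on GRCm38.p6.

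The choroid plexus spots and all gene lists were chosen with earlier results of these data known. The midline of a section was the line that best mirrored 30 principal components of 2000 variable genes (correlation 0.697 and 0.801 between mirrored spots). Spots within 8 pitches of it were called near. UMIs were summed per mouse and spot set, which gave 4 libraries per fit, except in the comparison with adjacent spots. That fit took members and adjacent spots at both positions of each mouse. Its terms were mouse, spot kind, position and the interaction of spot kind with position, and it left 3 residual degrees of freedom. edgeR 4.0.16 in R 4.3.3, with limma 3.58.1, gave the tests (glmQLFit and glmQLFTest after TMM and filterByExpr). The mouse entered as block, and calls were made at an adjusted p of 0.05 by the Benjamini-Hochberg method. Sets of a mouse share a section, which is where the pairing comes from. Nothing says more about how the mice were raised, so p-values speak only for these sections. They lean on a spread shared by all genes more than on each gene's own spread between the sections. The SE rests on the same shared spread. DESeq2 1.42.0, scaling to totals, other spot numbers, other filters and other near limits were alternatives. Genes of the score and epithelial lists were described by level, with at least 50 UMIs in 1 of 4 sums and a fold of 2 in both mice. A prior count of 2 went into differences within a single mouse, and ratios between the mice have exact Poisson intervals of 95%, which cover counting error only. Other computing used Python 3.11.15, numpy 2.4.6, scipy 1.17.1 and pandas 2.3.3, and figures matplotlib 3.10.9.

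Named were the genes of the score, up to 4 genes per list with the largest difference of 1 sign in both mice (up to 2 as values where none passed), the C1q genes, C4b, Igkc, Igha, Ighm, Jchain, Otx2, Htr2c, Plvap, Gfap, Mbp and Snap25, the 10 highest folds outside the lists, the 10 largest differences each way by position, up to 3 genes per list against ependymal and meningeal spots, and 5 ratios each way between the mice. Other genes with values in the text were picked after their values were seen. Some genes that the rule names are not reported here. On simulated data with 200 changed genes among 15288, the fit against all other spots recovered 88% of 2-fold and 100% of 4-fold changes. Among 4585 genes by position it recovered 46% and 98%. The changed genes were drawn only above a minimum expected count, all genes of a comparison had the same spread, and the mice did not differ. The rates therefore do not cover genes with few UMIs or genes that differ between the mice.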

Additional observations from a re-analysis of the deposited data

Results flagged for a closer look

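The difference between positions was itself compared between choroid plexus spots and the adjacent spots around them, and 22 of 5802 genes differed by the edgeR interaction term (0.379%). Among the listed genes these were Slc12a2 (log2 1.79, members minus adjacent spots), Enpp2 (1.15), Hbb-bt (1.42) and Snap25 (2.18), whose position difference was more positive in the members, and Rarres2 (-2.16) and Cfap126 (-2.53), whose difference was more negative there. Both genes with a negative value are ependymal, and Cfap126 rose by 1.68 near the midline in the adjacent spots (edgeR adjusted p = 0.0077). Hbb-bt, a beta chain of haemoglobin, stood at 343.9 and 2417 CPM in the members near the midline and 106.4 and 992.8 farther out. The causes were not tested.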

How the results depend on the processing

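Counts of genes depended on the tool and the scaling. DESeq2 called 1130 genes lower against all other spots, 178 higher and 94 lower against ependymal spots, 105 and 45 against meningeal spots and 38 and 61 by position. Scaling to library totals gave 420 higher and 1637 lower against ependymal spots, 310 higher against meningeal spots and 321 higher near the midline. Without the replicate block the counts were 471 higher and 389 lower against ependymal spots and 156 lower against meningeal spots. With no filter beyond 1 UMI, 331 genes were higher near the midline. With 20 spots per section 83 were higher and 73 lower near the midline, and with 80 spots 506 and 523, and 497 were lower against meningeal spots. Near limits of 6 and 12 pitches left the members of each position as they were, with 213 and 198 calls. The ratio of mouse 2 to mouse 1 was 15.3 for Hbb-bs with 20 spots and 6.62 with 80, and 0.968 and 0.756 for Ttr.

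Direction changed in few named genes. Against all other spots, Igha stood at -0.05 without mouse 2 and 1.69 without mouse 1, and Gfap at -0.10 with 20 spots per section. Against meningeal spots, Cd74, which never passed, stood at 0.21 in DESeq2, 0.02 with Ttr left out, 0.24 with 80 spots, 1.24 without mouse 2 and -0.66 without mouse 1. By position, Enpp2 stood at -0.04 with 80 spots and Slc12a2 at 0.13 with 20. The cause was not tested. Depth limits the position comparison, since the 8 spots farther out in mouse 2 gave 171227 UMIs, and with 2 mice the spread between animals is hardly measured.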
